A study of Sus scrofa with 12 samples.

Results

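The genes described here mark the stem cells at the base of the intestinal crypt or are switched on by Wnt signalling, which keeps those cells dividing. They are LGR5, OLFM4, ASCL2, SMOC2, AXIN2, EPHB2, SOX9, CD44, MYC and RNF43, 10 of the 12161 genes with a probe set kept after the filter on dim signals. Members were found by their gene symbol in the platform's annotation, and where a gene had several probe sets, the one of highest mean signal stands for it and the others are given beside it. All 10 were on the array with 20 probe sets in all, of which 18 passed the filter. The 2 that did not were 1 of 3 probe sets of LGR5 (mean log2 value 1.80) and 1 of 3 of RNF43 (mean 2.44), and each gene kept a brighter one.

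The series measured RNA from the ileal mucosa of 12 pigs on 1-colour arrays. Feed efficiency, the gain in body mass per amount of feed, was high in 6 pigs and low in the other 6. Each group held 3 males and 3 females, and all pigs were 140 days old. The labels name no other treatment, and they do not give the breed. No identifier occurs on more than 1 array, so replicates differ as animals do. Pigs are numbered 1 to 6 within each group.

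At the base of each crypt, Wnt ligands hold β-catenin in the nucleus of stem cells, where it acts with TCF transcription factors on genes such as LGR5, ASCL2 and AXIN2. R-spondins bind the LGR receptors and take RNF43, a ubiquitin ligase that removes Wnt receptors from the cell surface, out of action. Cells that leave the crypt base divide a few more times, lose Wnt signalling and EPHB2, and become absorptive and secretory cells of the villus. These roles are known mainly from mouse and human intestine.

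Arrays give log2 values, so a difference of 1 is a doubling of signal, and values of different probe sets cannot be ranked against each other. In mucosa, fewer cells of a type and less RNA per cell cannot be told apart. Markers of intestinal epithelium were present on every array: 7 of the 8 genes of the list were measured, with EPCAM from 7.84 to 10.9 and VIL1 from 9.09 to 11.5. High feed efficiency pig 1, a male, stood apart. Its epithelium score, the mean over the 7 genes of the log2 value minus the gene's mean over all arrays, was -1.76, while the other 11 pigs lay between -0.28 and 0.66.

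Among the markers that are most specific for crypt base cells in mouse and human, OLFM4 differed most between the feed efficiency groups. OLFM4, a secreted glycoprotein of crypt base cells, ran from 8.98 through a median of 10.5 to 11.1 in high and from 10.8 through 11.2 to 11.7 in low feed efficiency. The lowest 4 of the 12 values belonged to high feed efficiency pigs, but the ranges overlapped. The difference, high minus low, was -0.80 ± 0.26 (SE, n = 6 each; limma unadjusted p = 0.0103, exact permutation p = 0.02), and it did not pass after adjustment over all 33405 probe sets (limma adjusted p = 0.999). It lay at -0.56 without high feed efficiency pig 1 and between -0.95 and -0.56 whichever pig was left out.

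LGR5, the R-spondin receptor that marks crypt base stem cells, pointed the other way. It ran from 5.60 through a median of 6.38 to 7.53 in high and from 5.63 through 6.28 to 6.81 in low feed efficiency, and the groups overlapped almost wholly. Its difference was 0.25 ± 0.21 (SE, n = 6 each; limma adjusted p = 0.999, exact permutation p = 0.295) and 0.12 without high feed efficiency pig 1. The second bright probe set of LGR5, SNOWBALL_007292_st, gave -0.07 ± 0.14, so no direction can be named for this gene.

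ASCL2, the transcription factor that holds the stem cell state, varied little, from 5.08 to 5.49 in high and from 5.33 to 5.95 in low feed efficiency, with medians of 5.43 and 5.52. Its difference was -0.20 ± 0.13 (SE, n = 6 each), or -0.13 without low feed efficiency pig 4. SMOC2, a matricellular protein found in crypt base cells, had the widest range of the 10, from 5.48 through 7.28 to 8.25 in high and from 6.85 through 7.60 to 8.52 in low feed efficiency. Its difference of -0.40 ± 0.36 was -0.09 without high feed efficiency pig 1, the lowest pig of the 12.

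The Wnt targets and feedback genes differed less than OLFM4. AXIN2, a scaffold of the complex that degrades β-catenin and a direct Wnt target, read 4.87 to 6.37 in high and 5.02 to 6.55 in low feed efficiency, with medians of 5.52 and 5.60 and a difference of -0.12 ± 0.21 (SE, n = 6 each). RNF43 read 4.52 to 6.12 in high and 5.50 to 6.26 in low feed efficiency, with medians of 5.82 and 5.64. Its difference of -0.08 ± 0.23 turned to 0.13 without high feed efficiency pig 1. In AXIN2 the groups covered nearly the same range. In RNF43 the wider spread of the high feed efficiency group came from pig 1 (4.52), and its other pigs read 5.55 to 6.12.

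EPHB2, the receptor that keeps crypt cells in their place, ran from 5.01 through 6.20 to 6.69 in high and from 6.02 through 6.33 to 6.75 in low feed efficiency. Its difference was -0.34 ± 0.19 (SE, n = 6 each; limma adjusted p = 0.999, exact permutation p = 0.095) and -0.18 without high feed efficiency pig 1. The probe set SNOWBALL_022214_st of the same gene gave -0.36 ± 0.12 (limma unadjusted p = 0.0110, exact permutation p = 0.015) and SNOWBALL_038771_st, the dimmest of the 3, gave -0.09 ± 0.15. All 3 were lower in high feed efficiency, and none passed after adjustment.

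SOX9, a transcription factor of crypt progenitors and Paneth cells, ran from 6.22 through 6.61 to 6.75 in high and from 6.45 through 6.71 to 7.0 in low feed efficiency, with a difference of -0.17 ± 0.13 (SE, n = 6 each), or -0.11 without high feed efficiency pig 1. CD44, a hyaluronan receptor of crypt cells that leukocytes carry as well, ran from 6.92 through 7.75 to 8.13 in high and from 7.70 through 7.87 to 8.24 in low feed efficiency, with a difference of -0.28 ± 0.18, or -0.15 without high feed efficiency pig 3. Its other probe set, SNOWBALL_038031_st, gave 0.25 ± 0.21, so the direction of CD44 depends on the probe set. MYC, a transcription factor that drives growth, ran from 6.62 through 7.39 to 7.67 in high and from 7.15 through 7.46 to 7.74 in low feed efficiency. Its difference of -0.18 ± 0.17 was -0.04 without high feed efficiency pig 3, which had the lowest value. The second probe sets not yet given differed by -0.43 ± 0.27 for SMOC2, -0.34 ± 0.20 for AXIN2, -0.21 ± 0.14 for SOX9 and 0.01 ± 0.17 for RNF43.

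**Figure D1:**
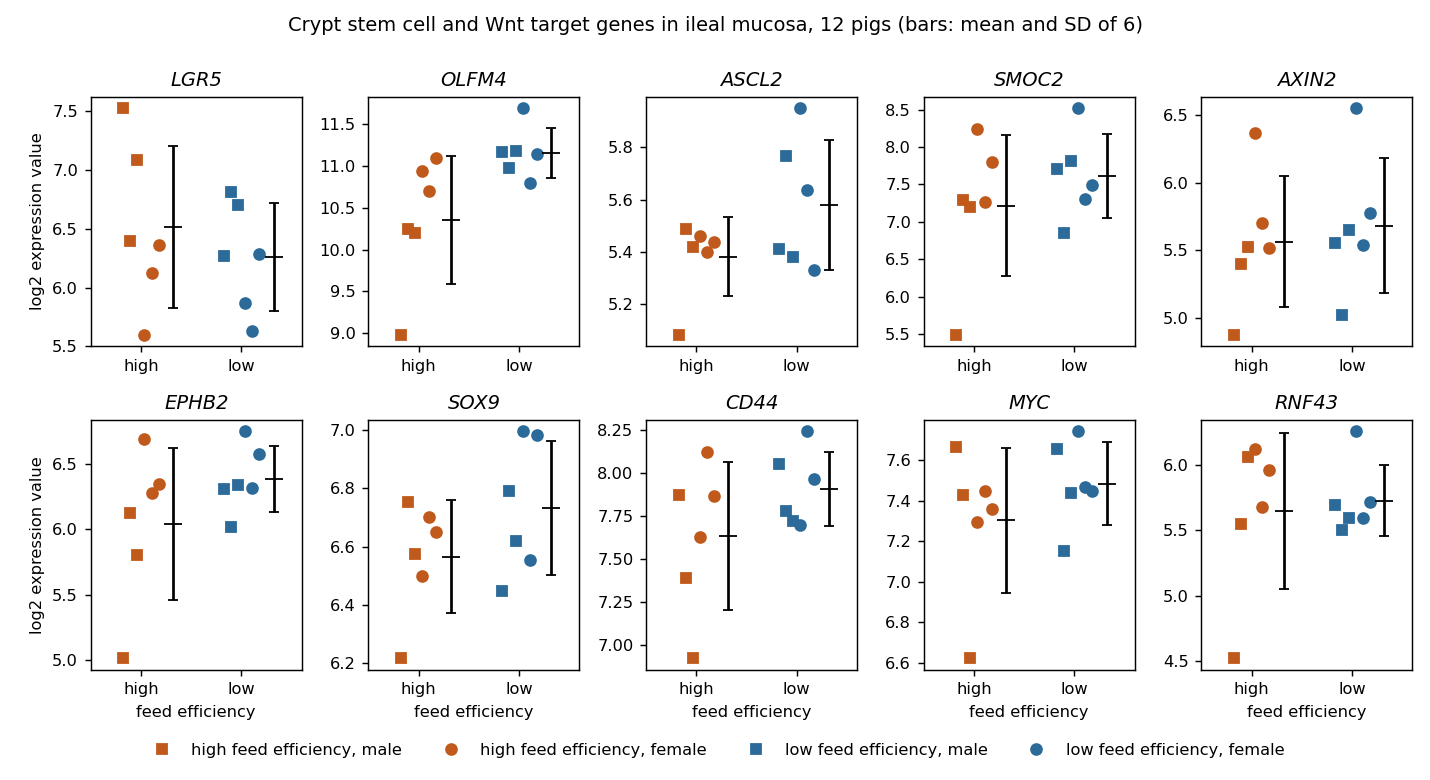
Log2 expression value of each gene (vertical axes, a scale of its own per gene) in the 6 high and 6 low feed efficiency pigs, with squares for males and circles for females; the bar beside each group is the mean with the SD of 6. OLFM4 lay lower in high feed efficiency (10.4 ± 0.77 against 11.2 ± 0.30, SD), and the single lowest point of OLFM4, ASCL2, SMOC2, AXIN2, EPHB2, SOX9 and RNF43 is high feed efficiency pig 1.

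With limma, 0 of the 10 genes passed an adjusted p of 0.05 for feed efficiency, and 0% of all 33405 probe sets did. An unadjusted p under 0.05 was reached by 1 gene, OLFM4, against 3.17% of all probe sets in either direction and 1.42% in the lower one. A negative difference was found in 9 of the 10, against 49.4% of all probe sets and 52.5% of 12161 genes with 1 probe set each. The members' median difference was -0.19, beside a median of 0.00 over all probe sets. The 9 are not independent of each other, as the correlations further on show, and the epithelium list had the same sign in 7 of 7 measured genes, with score ranges of -1.76 to 0.61 in high and -0.26 to 0.66 in low feed efficiency (exact permutation p = 0.41). With high feed efficiency pig 1 left out, the mean difference of these 7 genes, with sex in the fit, went from -0.34 to -0.045. Of the 7 genes 4 were then lower, while 8 of the 10 members were, with a median of -0.13. The part of the epithelium genes in the members' difference was not tested. In 0 of the 10 genes were the groups free of overlap, against 0.0928% of all probe sets.

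The 95% intervals of the differences show what 6 pigs a group could resolve. For ASCL2 and SOX9 they ran from -0.48 to 0.09 and from -0.45 to 0.12, so a change by 1 on the log2 scale lay outside. For SMOC2 the interval ran from -1.18 to 0.38 and for OLFM4 from -1.37 to -0.23, the one interval without 0. This interval takes no account of the number of probe sets tested.

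Sex was the other factor of the design, and here LGR5 differed most. Males read from 6.27 through a median of 6.76 to 7.53 and females from 5.60 through 6.0 to 6.37. The highest values belonged to males, and the ranges overlapped only between 6.27 and 6.37. The difference, male minus female, was 0.82 ± 0.21 (SE, n = 6 each; limma unadjusted p = 0.00228, exact permutation p = 0.01) and did not pass after adjustment (limma adjusted p = 0.107). Left out in turn, no pig moved it outside 0.69 to 0.94. SNOWBALL_007292_st of LGR5 gave 0.36 ± 0.14 (exact permutation p = 0.035).

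The other 9 genes had the opposite sign, and a limma unadjusted p under 0.05 was reached by EPHB2, AXIN2 and OLFM4. EPHB2 ran from 5.01 through 6.07 to 6.34 in males and from 6.28 through 6.46 to 6.75 in females, a difference of -0.56 ± 0.19 (SE, n = 6 each; limma adjusted p = 0.159, exact permutation p = 0.01). AXIN2 ran from 4.87 through 5.46 to 5.65 in males and from 5.51 through 5.74 to 6.55 in females, a difference of -0.57 ± 0.21 (limma adjusted p = 0.184, exact permutation p = 0.03). OLFM4 ran from 8.98 through 10.6 to 11.2 in males and from 10.70 through 11.02 to 11.69 in females, a difference of -0.61 ± 0.26 (limma adjusted p = 0.24, exact permutation p = 0.045), or -0.37 without high feed efficiency pig 1. In each of these the lowest pigs were males, and the upper males reached into the range of the females.

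The intervals of the remaining genes held 0. SMOC2 differed by -0.71 ± 0.36 (SE, n = 6 each), RNF43 by -0.40 ± 0.23, CD44 by -0.30 ± 0.18, SOX9 by -0.16 ± 0.13, MYC by -0.13 ± 0.17 and ASCL2 by -0.11 ± 0.13. SMOC2 stood at -0.41, RNF43 at -0.19 and SOX9 at -0.10 once high feed efficiency pig 1 was dropped. Without high feed efficiency pig 3 the sex difference was -0.17 for CD44 and 0.0037 for MYC, and without low feed efficiency pig 4 it was -0.04 for ASCL2. The other probe sets of SMOC2 and EPHB2 had the same sign (-0.85 ± 0.27 for SNOWBALL_002030_st, exact permutation p = 0.015). The other probe set of CD44 had the opposite one (0.64 ± 0.21, exact permutation p = 0.005, the smallest these permutations can give), and that of AXIN2 read 0.00 ± 0.20.

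With limma, 0 of the 10 genes passed an adjusted p of 0.05 for sex, against 0.0329% of all probe sets. Unadjusted p-values under 0.05 were reached by 1 gene that was higher in males, LGR5, against 9.79% of all probe sets, and by 3 that were lower, against 9.17%. A negative difference was found in 9 of 10 genes, against 51% of all probe sets and 55.65% of 12161 genes with 1 probe set each. Of those 12161, 1000 were higher and 1462 lower in males at a limma unadjusted p under 0.05. The sexes did not separate fully in any member, against 2.18% of all probe sets. Sex and the range of pig identifiers overlap in part, since the 4 pigs of the upper range are all females. Within the lower range (6 males, 2 females) the male minus female difference was 1.06 for LGR5, -0.79 for EPHB2, -1.12 for AXIN2 and -0.86 for OLFM4. These values rest on 2 females, high and low feed efficiency pigs 4. Of all 12 pigs they had the highest EPHB2 and AXIN2 values and the highest epithelium scores (0.61 and 0.66). The epithelium score ran from -1.76 to 0.31 in males and from -0.10 to 0.66 in females (exact permutation p = 0.15), and all 7 of its genes were lower in males. The first principal component of all 33405 probe sets ran from -107.7 to 14.2 in males and from 6.89 to 61.2 in females (exact permutation p = 0.015). The part of either in the sex difference was not tested.

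**Figure D2:**
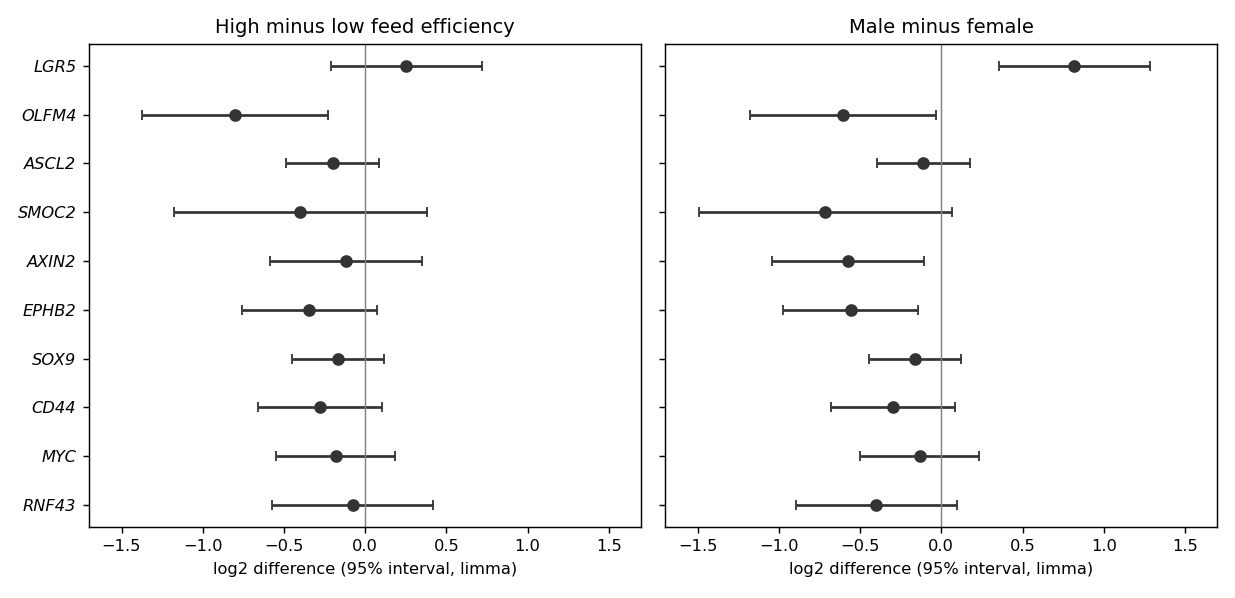
Log2 difference of each gene (horizontal axis) between high and low feed efficiency on the left and between males and females on the right, with 95% intervals from limma over 12 pigs. OLFM4 on the left (-0.80) and LGR5, EPHB2, AXIN2 and OLFM4 on the right have intervals that leave out 0, and none passed after adjustment over all probe sets.

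The feed efficiency difference of OLFM4 was -1.30 in males (9.80 in high and 11.1 in low feed efficiency, means of 3) and -0.30 in females (10.9 and 11.2). The difference between the sexes was -1.0 ± 0.46 (SE, limma unadjusted p = 0.0532, adjusted p = 1.00) and lay at -0.59 without high feed efficiency pig 1. Over all probe sets this test called 0%, with 2.76% at an unadjusted p under 0.05, where 0 of the 10 members stood.

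Over animals, several of the members varied together. Pearson correlations were computed for all 45 pairs over 12 pigs, and 11 passed a permutation p adjusted over the 45 pairs, 8 positive and 3 negative. With Spearman rho 8 of these passed, 6 positive and 2 negative. LGR5 with SMOC2 (adjusted permutation p = 0.113), SMOC2 with RNF43 and EPHB2 with RNF43 (0.079 each) did not. The p-values of rho given below are unadjusted. SMOC2, EPHB2, AXIN2, RNF43 and OLFM4 form the positive block, with LGR5 set against it. CD44 and MYC stood outside, with an r of 0.69 with each other (permutation p adjusted over 45 pairs 0.071). ASCL2 and SOX9 had positive r with all 5 genes of the block, from 0.44 to 0.66, and passed with none.

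SMOC2 and EPHB2 were the closest pair, with r = 0.94 (permutation p = 8e-05, adjusted 0.0036) and rho = 0.92 (permutation p = 6e-05). Pigs high in one were high in the other: low feed efficiency pig 4 was highest in both (8.52 and 6.75), high feed efficiency pig 4 came second (8.25 and 6.69) and high feed efficiency pig 1 was lowest (5.48 and 5.01). Without the 2 pigs farthest from the median of SMOC2 r was 0.75, without high feed efficiency pig 1 it was 0.82 (adjusted permutation p = 0.0422), and within the lower identifier range it was 0.98 over 8 pigs. The upper range holds 4 pigs, too few for a value.

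OLFM4 followed EPHB2 with r = 0.91 (permutation p = 0.00041, adjusted 0.00461; rho = 0.74, permutation p = 0.00811) and SMOC2 with r = 0.88 (adjusted permutation p = 0.00788; rho = 0.77, permutation p = 0.00499). Without high feed efficiency pig 1 the former was 0.75 and the latter 0.66, and neither passed (adjusted permutation p of 0.0637 and 0.118). AXIN2 followed SMOC2 (r = 0.86, rho = 0.75), EPHB2 (r = 0.82, rho = 0.81) and RNF43 (r = 0.79, rho = 0.73), and these 3 relations were as close without that pig (r of 0.89, 0.82 and 0.77). Low and high feed efficiency pigs 4 had the highest AXIN2 values (6.55 and 6.37), and without both the r with EPHB2 was 0.82 and that with RNF43 0.73.

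RNF43 followed SMOC2 (r = 0.90, adjusted permutation p = 0.00788; rho = 0.69, permutation p = 0.0158) and EPHB2 (r = 0.81, adjusted permutation p = 0.0347; rho = 0.69, permutation p = 0.0176). Without high feed efficiency pig 1 the latter r was 0.42 (adjusted permutation p = 0.435). Without high feed efficiency pig 3 it was 0.96, and without both pigs it was 0.85. Of all 11 pairs, 4 passed without high feed efficiency pig 1: SMOC2 with EPHB2, SMOC2 with AXIN2, AXIN2 with EPHB2 and AXIN2 with RNF43. Whichever single pig was left out, SMOC2 with EPHB2 (r from 0.82 to 0.96) and SMOC2 with AXIN2 (r from 0.83 to 0.89) passed, and each of the other 9 pairs failed at least 1 time.

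LGR5 was high where EPHB2 was low, with r = -0.85 (permutation p = 0.00034, adjusted 0.00461) and rho = -0.73 (permutation p = 0.00869). High feed efficiency pigs 1 and 3 had the highest LGR5 (7.53 and 7.08) and the lowest EPHB2 (5.01 and 5.80), and high feed efficiency pig 4 had the lowest LGR5 (5.60) and the second highest EPHB2. Without pigs 1 and 3, which are the 2 farthest from the median of LGR5, r was -0.64, and without pig 1 alone it was -0.76 (adjusted permutation p = 0.0615). Over the 8 pigs of the lower identifier range it was -0.93. It was -0.90 in the 6 males and -0.30 in the 6 females, and that difference was not tested.

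LGR5 also ran against SMOC2 (r = -0.75, adjusted permutation p = 0.025; rho = -0.64, permutation p = 0.0276) and AXIN2 (r = -0.74, adjusted permutation p = 0.0309; rho = -0.74, permutation p = 0.00806). In females these were -0.29 and -0.46, and neither passed without high feed efficiency pig 1 (r of -0.53 and -0.63, adjusted permutation p of 0.287 and 0.126). With OLFM4, which shares the crypt base with LGR5 in human intestine, r was -0.67 (adjusted permutation p = 0.0612) and -0.36 without that pig. In 0 of the 9 pairs of LGR5 was r above 0.

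**Figure D3:**
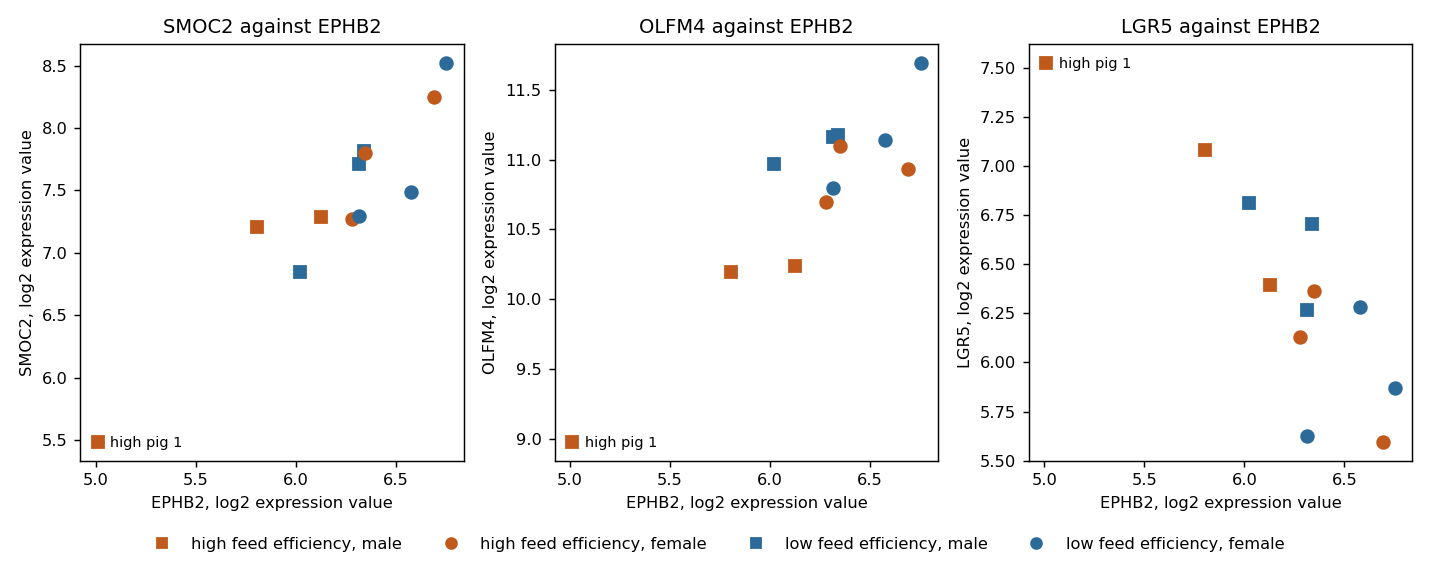
SMOC2, OLFM4 and LGR5 (vertical axes) against EPHB2 (horizontal axes), all as log2 expression values, 1 point per pig with squares for males and circles for females. SMOC2 and OLFM4 rise with EPHB2 (r of 0.94 and 0.91) and LGR5 falls (r = -0.85), and high feed efficiency pig 1 lies at the end of each.

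The probe sets of a gene bear on how far these values measure the gene. For LGR5 the 2 bright probe sets followed each other (r = 0.83 over 12 pigs, and 0.81 without high feed efficiency pig 1), and the second one ran against EPHB2 too (r = -0.67). The pairs of SMOC2 (r = 0.82), SOX9 (0.67) and the 2 brighter ones of EPHB2 (0.73) had a positive r too, which was 0.67, 0.43 and 0.47 without that pig. Those of AXIN2 had a lower r (0.31), and those of RNF43 (-0.11) and CD44 (-0.16) a negative one. Without that pig these were 0.45, 0.22 and -0.40. The dimmest of EPHB2 had an r of 0.18 and 0.12 with its brighter ones. The second probe set of CD44 ran against EPHB2 (r = -0.95) and with LGR5 (r = 0.86), so the place of CD44 outside the block holds for its brighter probe set alone. Likewise the place of AXIN2 and RNF43 inside it holds for the brighter one: the second of AXIN2 had an r of 0.04 with SMOC2 and 0.06 with EPHB2, and that of RNF43 0.04 and -0.05. For EPHB2 the second, SNOWBALL_022214_st, had an r of 0.53 with SMOC2, 0.37 with AXIN2, 0.44 with RNF43 and 0.78 with OLFM4. Its dimmest, SNOWBALL_038771_st, had 0.07, 0.14, -0.15 and 0.24. The close relations of EPHB2 to SMOC2, AXIN2 and RNF43 thus hold for its brightest probe set. With the mean over all probe sets of each gene, 6 of 45 pairs passed.

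The block moved with the epithelial markers of the mucosa. Each gene was set against 6 marker scores and the first principal component of all 33405 probe sets, which held 30.5% of the variance, and 16 of these 70 relations passed a permutation p adjusted over the 70. The epithelium score had an r of 0.96 with SMOC2 (adjusted permutation p = 0.00035; rho = 0.81), 0.95 with RNF43 (rho = 0.88), 0.91 with EPHB2 (rho = 0.71), 0.87 with OLFM4 (rho = 0.61) and 0.80 with AXIN2 (rho = 0.74). Without high feed efficiency pig 1 these stood at 0.90, 0.83, 0.68, 0.58 and 0.87, and of them SMOC2, RNF43 and AXIN2 passed (adjusted permutation p of 0.00583, 0.0136 and 0.0091). The r with LGR5 was -0.67 (adjusted permutation p = 0.0623), with CD44 -0.14 and with MYC -0.18.

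The first component, lowest in high feed efficiency pig 1 and highest in low feed efficiency pig 4, followed the block as closely: r was 0.97 for SMOC2, 0.95 for EPHB2, 0.89 for AXIN2, 0.88 for RNF43 and 0.87 for OLFM4, and -0.82 for LGR5. Without high feed efficiency pig 1, SMOC2 (0.93), AXIN2 (0.91) and EPHB2 (0.89) passed, and RNF43 (0.69), OLFM4 (0.67) and LGR5 (-0.67) did not. The score of 16 proliferation genes such as MKI67 and MCM5 passed with none of the 10 (r from -0.59 to 0.56, highest with CD44). Without high feed efficiency pig 1, RNF43 passed with it (r = -0.86, adjusted permutation p = 0.0136), where r had been -0.55, and also with the smooth muscle score (r = 0.81, adjusted permutation p = 0.0206) and the B cell score (r = -0.81, adjusted permutation p = 0.0148). RNF43 and SMOC2 also passed with the enterocyte score (r of 0.88 and 0.82), SMOC2 and AXIN2 with the fibroblast score (0.76 and 0.74), and CD44 ran against the smooth muscle score (-0.71, adjusted permutation p = 0.0497). Of these 5 relations, SMOC2 with the fibroblast score (r = 0.79, adjusted permutation p = 0.0198) passed without high feed efficiency pig 1. The others did not, with r of -0.71 for CD44 with smooth muscle, 0.68 for AXIN2 with fibroblast, 0.67 for RNF43 and 0.53 for SMOC2 with the enterocyte score.

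With the epithelium score taken out by regression, 0 of 45 pairs passed, and 0 passed with the first component taken out. The 8 positive pairs that had passed shrank with the epithelium score taken out. SMOC2 with EPHB2 went from 0.94 to 0.56, OLFM4 with EPHB2 from 0.91 to 0.60 and SMOC2 with RNF43 from 0.90 to -0.11. Some pairs of MYC or CD44 rose, SMOC2 with MYC from 0.06 to 0.81 and EPHB2 with CD44 from 0.18 to 0.73 (adjusted permutation p of 0.0724 and 0.204). CD44 with RNF43 went from -0.29 to -0.51. With the first component taken out instead, these read -0.16, 0.29 and -0.79. LGR5 with EPHB2 went from -0.85 to -0.78 (adjusted permutation p = 0.0747) with the epithelium score taken out and to -0.43 with the first component taken out. With feed efficiency and sex taken out instead, 11 pairs passed, 9 positive and 2 negative, but not the same 11. LGR5 with EPHB2 passed (r = -0.70, adjusted permutation p = 0.0376). LGR5 with SMOC2 (r = -0.62) and with AXIN2 (r = -0.50) did not (adjusted permutation p of 0.101 and 0.222). OLFM4 with RNF43 (r = 0.85) and CD44 with RNF43 (r = -0.76) passed in their place (adjusted permutation p of 0.00756 and 0.0230).

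**Figure D4:**
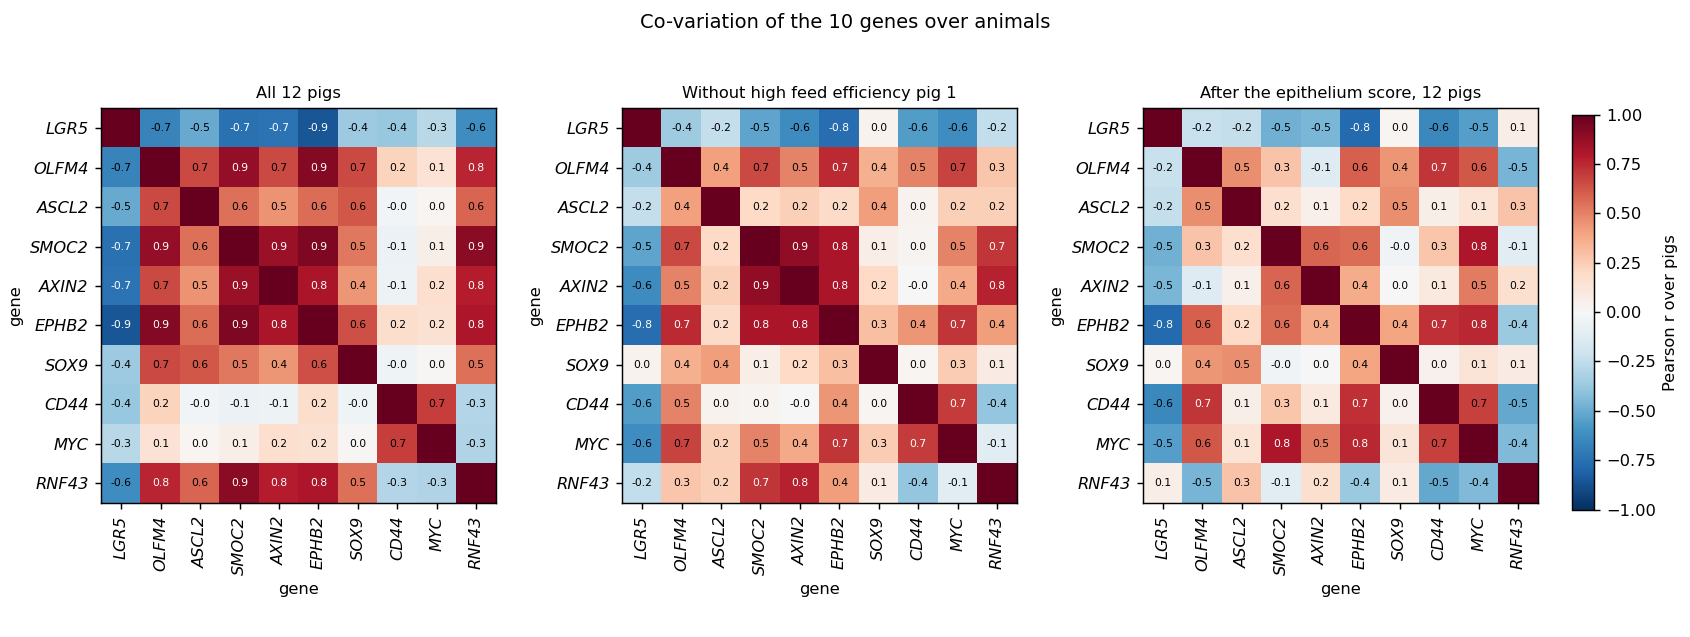
Pearson r over pigs for each pair of the 10 genes (rows and columns, colour from -1 to 1) in all 12 pigs, without high feed efficiency pig 1, and with the epithelium score taken out. The block of OLFM4, SMOC2, AXIN2, EPHB2 and RNF43 with LGR5 against it counts 11 passing pairs on the left, 4 in the middle and 0 on the right.

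**Figure D5:**
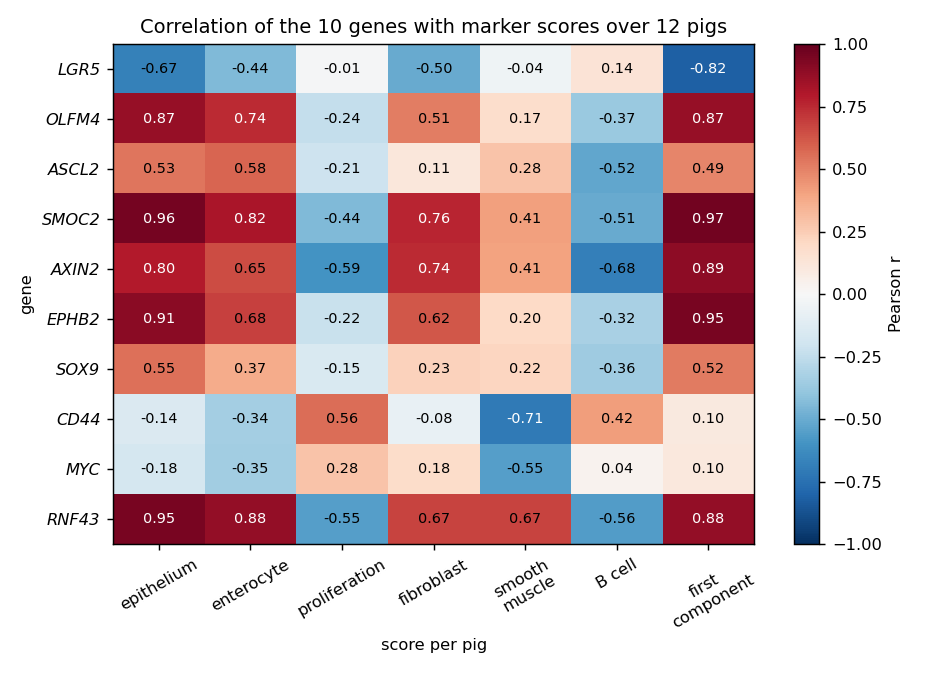
Pearson r over 12 pigs between each gene (rows) and the 6 marker scores and first principal component (columns). The epithelium column runs from 0.96 for SMOC2 to -0.67 for LGR5, and the proliferation column from 0.56 for CD44 to -0.59 for AXIN2.

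Many genes outside the list followed the block as well. An r above 0.7 with SMOC2 was found for 13.6% of the other 12160 genes, with EPHB2 for 13.2%, with RNF43 for 11.6%, with AXIN2 for 10.9% and with OLFM4 for 9.42%, and by 4, 4, 4, 3 and 3 of the 9 other members. For LGR5, 9.97% of genes had an r under -0.7, and 3 of the 9 members did. For ASCL2, SOX9, MYC and CD44 at most 2.90% of genes had an r above 0.7, and 0 members did.

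Over 12 pigs, the gene most like RNF43 among 12151 was LGR4 (r = 0.98, and 0.92 without high feed efficiency pig 1), the R-spondin receptor of the same family as LGR5, followed by SLC6A19, an amino acid transporter of enterocytes. Most like LGR5 were RALGAPA1 (r = 0.96), part of a GTPase-activating complex, and OFD1 (0.96), a protein of the centrosome. OLFM4 was closest to C4BPA (0.97), a complement inhibitor, and DDAH1 (0.96), which breaks down methylated arginine, and DDAH1 was also next to EPHB2 (0.96), behind the tetraspanin TSPAN15 (0.97). SMOC2 was closest to SPCS3 (0.98), a signal peptidase subunit, and EPHX1 (0.98), an epoxide hydrolase. For ASCL2 it was the transcription factor GATA3 (0.92) and the kinesin light chain KLC2 (0.89). AXIN2 stood next to CCDC120 (0.97) and ZER1 (0.97), SOX9 next to ATP6V0A4 (0.86) and STK32B (0.86). CD44 stood next to SLA-DRB4 (0.94), an MHC class II chain, and CNPY3 (0.94), and MYC next to complement C2 (0.92) and PLXNC1 (0.89). These genes were picked by their r, so it carries no test.

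The rest of the Wnt pathway split between both directions with feed efficiency. Of the ligands, 12 of 14 listed were measured, 8 higher and 4 lower in high feed efficiency with a median difference of 0.03, and 0 had an unadjusted p under 0.05. WNT2 was nearest (0.33 ± 0.15, SE, n = 6 each), and WNT5A, a ligand of the stroma, differed by 0.38 ± 0.28 with means of 2.91 and 2.53, near the filter's limit of 2.67. Of 14 measured receptors 5 were higher and 9 lower (median -0.03), with the receptors FZD8 at 0.23 ± 0.12 and FZD5 at -0.27 ± 0.24. LGR4 stood at -0.30 ± 0.39. Of 16 genes that carry the β-catenin signal, 7 were higher and 9 lower (median -0.05), and 1 had an unadjusted p under 0.05: DVL3, a scaffold that relays the signal from the receptors, at 0.85 ± 0.38 (limma adjusted p = 0.999). DVL1 of the same family stood at 0.18 ± 0.12 and β-catenin itself, CTNNB1, at -0.08 ± 0.11.

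Of 13 Wnt inhibitors, 7 were higher and 6 lower in high feed efficiency (median 0.01), with APCDD1, which blocks the ligands at the membrane, at 0.42 ± 0.21 and the co-repressor TLE4 at -0.31 ± 0.19. ZNRF3, the partner of RNF43, stood at 0.02 ± 0.12. Of 15 other crypt and Wnt target genes 8 were higher and 7 lower (median 0.01), with LRIG1, a brake on growth factor receptors in stem cells, at 0.25 ± 0.12 and EFNB1, a ligand of EPHB2, at -0.46 ± 0.24. Of 20 Notch and BMP genes, 9 were higher and 11 lower (median -0.04), with the BMP antagonists GREM1 at 0.27 ± 0.19 and CHRDL1 at 0.18 ± 0.13. Over all 12161 genes 52.5% were lower, with a median of -0.01, and limma called 0 genes of any of these lists. The median of each of these 6 lists changed sign when single pigs were left out, within -0.13 and 0.08.

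Lists of other cells differed as follows. All 7 epithelium genes were lower in high feed efficiency (median -0.33), among them EPCAM (-0.55 ± 0.38) and CDH1 (-0.44 ± 0.31), as were 10 of 11 enterocyte genes (median -0.49), with APOA4 at -0.98 ± 0.37 (limma unadjusted p = 0.0225) and ANPEP at -0.49 ± 0.32. Goblet cell genes were lower in 6 of 6 (median -0.24), with AGR2 at -0.35 ± 0.15 (limma unadjusted p = 0.0384) and SPINK4 at -0.43 ± 0.34, and Paneth cell genes in 3 of 4 (median -0.26), with DEFB1 at -0.19 ± 0.10 and LYZ at -0.34 ± 0.23. Proliferation genes were higher in 10 of 16 (median 0.03), with MCM5 at 0.27 ± 0.22 and CDK1 at -0.26 ± 0.30. After leaving out high feed efficiency pig 1, 4 of 7 epithelium genes were lower (median -0.01), as were 8 of 11 enterocyte genes (median -0.09) and 4 of 6 goblet cell genes (median -0.01). Without low feed efficiency pig 4 proliferation genes were higher in 1 of 16 (median -0.15), and without high feed efficiency pig 3 in 14 of 16 (median 0.22).

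Fibroblast genes split 3 to 3 (median 0.00; COL1A1 0.12 ± 0.19, PDGFRA -0.07 ± 0.13), and smooth muscle genes were higher in 5 of 6 (median 0.15; MYH11 0.35 ± 0.20, MYLK 0.33 ± 0.28). B cell genes were higher in 5 of 5 (median 0.36; BCL6 0.35 ± 0.35, PAX5 0.66 ± 0.84), with low feed efficiency pig 4 far below the rest in their score (-3.27) and 1 of 5 higher without that pig (median -0.36), T cell genes in 3 of 7 (median -0.04; CD3E -0.20 ± 0.20, CD3D -0.15 ± 0.18) and macrophage genes in 0 of 3 (median -0.19; MRC1 -0.57 ± 0.19 with limma unadjusted p = 0.0109, CD163 -0.19 ± 0.28). In the absence of high feed efficiency pig 3, smooth muscle genes were higher in 3 of 6 (median 0.02). Fibroblast genes were higher in 0 of 6 without low feed efficiency pig 2 (median -0.09) and in 5 of 6 without high feed efficiency pig 1 (median 0.04). T cell genes were higher in 0 of 7 without low feed efficiency pig 2 (median -0.10) and in 4 of 7 without high feed efficiency pig 2 (median 0.0008). Limma called 0 genes of these lists.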

How the data were processed

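RNA of the ileal mucosa of 12 pigs was measured on 1-colour Affymetrix arrays, 1 per pig. RNA was extracted with Qiazol, cleaned on columns and made into biotin-labelled DNA with the Ambion WT kit, per the labels' protocols. Per the submitters' processing notes, GCOS 1.1.1 was used. The sources used here name no method of background correction, probe summary or normalization. The deposited values are log2 values by their range (0.30 to 14.2), and array medians lay between 4.20 and 4.31, so no normalization was added. Of 47845 probe sets 123 controls were left out, and so were the 30% of the rest with the lowest mean (under 2.67), which left 33405. The platform annotation names 26426 probe sets, and 446 symbols were updated through the Sscrofa11.1 gene table.

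Each probe set was fitted with limma 3.58.1 in R 4.3.3 with terms for feed efficiency and sex, or with 4 group means for the difference between the sexes, and p-values were adjusted by Benjamini-Hochberg over all probe sets. Two-sided exact permutation tests ran over 400 arrangements, within sex or within feed efficiency group. Correlations had two-sided permutation tests with 100000 resamples, also on residuals, where they are approximate. A score is the mean of a list's measured genes, each centred on its mean. Named genes are the 10 members, up to 2 genes per list by smallest p for feed efficiency, and the 2 genes of highest r with each member. LGR4, CTNNB1, ZNRF3 and VIL1 were named beside these after their values were seen. Members and lists were chosen with earlier results of these data known. The scripts were tested on simulated data. Arrays give no read depth, so 6 pigs a group set the precision.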

Additional observations from a re-analysis of the deposited data

Results flagged for a closer look

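In 40 groups of 6 pigs (each gene by feed efficiency group and by sex), a single pig lay far from the rest in 5 (gap to its neighbour, relative to the group's range, above Dixon's 95% critical value), where chance gives about 1 in 20 groups. The 40 groups are not independent, since each pig counts in a feed efficiency group and in a sex group and the members vary together. The 5 are thus no test against that rate. High feed efficiency pig 1 was the low one for ASCL2 among high feed efficiency pigs (5.08, next 5.40) and for RNF43 among high feed efficiency pigs and among males (4.52, next 5.55 and 5.50). High feed efficiency pig 3 was low for MYC (6.62, next 7.29), and low feed efficiency pig 4 was high for RNF43 in its group (6.26, next 5.72). No difference of the feed efficiency effect between the sexes passed the test for a member.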

How the results depend on the processing

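No paired analysis was possible because the labels give the pigs no shared replicate number, litter or pen. For feed efficiency, limma called 0 probe sets under every alternative run over both sexes (1 in females alone), and of 110 alternative values of the members 3 had another sign: SMOC2 in females alone (0.0022) and RNF43 with array weights (0.029) and in females alone (0.063). With single pigs left out, AXIN2 ran from -0.23 to 0.010 (without low feed efficiency pig 4) and RNF43 from -0.21 to 0.13. For sex, limma called 11 probe sets, 7 without the filter on dim probe sets and with a trended and robust variance, 4 with a filter of the lowest 50%, 6 with the identifier range as a further term, 4 within the lower identifier range (chosen after seeing the data) 0 of 9565 genes after averaging probe sets by gene, and from 5 to 417 with 1 pig left out, the most without low feed efficiency pig 1. CD44 turned to 0.17 with the mean over its probe sets, and MYC ran from -0.23 to 0.0037 (without high feed efficiency pig 3). The difference between the sexes called 0 to 1. Of 45 pairs 11 passed, 8 with Spearman rho, 18 after median centring and 6 with the mean over probe sets. After the epithelium score or the first component (both added after seeing the data) 0 passed. With 1 pig left out, 4 (without high feed efficiency pig 1) to 13 passed. Without low feed efficiency pig 4, 6 passed, and without high feed efficiency pig 4, 7 passed. After the epithelium score r was -0.11 for SMOC2 with RNF43 and -0.37 for EPHB2 with RNF43, and after the first component 0.30 for LGR5 with SMOC2, -0.24 for AXIN2 with EPHB2 and -0.18 for EPHB2 with RNF43. List differences and marker scores without single pigs were also added after seeing the data. Of 70 relations to scores 16 passed, and 10 to 22 with 1 pig left out. The causes of these changes were not tested.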
